A study of Mus musculus with 6 samples.

Results

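Transcripts of 10 genes for lysosomal proteases were followed in lung cells of mice that had received C1q into the airways. The genes encode 9 cathepsins (Ctsa, Ctsb, Ctsc, Ctsd, Ctsh, Ctsk, Ctsl, Ctss and Ctsz) and the asparaginyl endopeptidase legumain (Lgmn). They were taken by gene symbol as 10 of the 26890 rows of the deposited count table, and all 10 passed the filter on low counts that left 13473 genes for testing. The study set 3 libraries from C57BL/6 wild-type mice given C1q (20 µg per mouse, intratracheally) against 3 libraries from C57BL/6 wild-type mice labelled as given saline, and all lungs were taken at day 3. Ages and sexes were not analysed here, and the treatment text of the saline samples describes the C1q instillation too, so that group rests on its treatment label. Lungs were digested with Liberase and DNase and separated on Percoll, and the middle layer went into 5′-end sequencing of polyadenylated RNA, so every value is an average over mixed lung cells. In such mixtures fewer cells of a type and less RNA per cell cannot be told apart. Nothing in the labels states that each library is a separate animal, so the p-values measure the spread between these libraries, which may be technical.

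Cathepsins and legumain work mainly in the acidic interior of endosomes and lysosomes, where they break down proteins delivered by endocytosis, phagocytosis and autophagy. Most are made as inactive precursors that are sorted by mannose 6-phosphate receptors and trimmed to the active form on the way, legumain being one of the enzymes that trims its relatives. Ctsb, Ctsc, Ctsh, Ctsk, Ctsl, Ctss and Ctsz are cysteine proteases of the papain family, Ctsd is an aspartic protease and Ctsa is a serine carboxypeptidase. In the lung many of them are made by macrophages, though not by macrophages alone, and Ctsh is also known from alveolar type 2 cells. Secreted by macrophages, Ctsk, Ctsl and Ctss can cut elastin, and Ctsk also cuts triple-helical collagen.

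The C1q libraries held more transcript of all 10 genes on average, by 1.19-fold for Ctsa to 1.79-fold for Ctsk, but 0 of 10 passed the test over all genes. That test was edgeR's quasi-likelihood test with Benjamini-Hochberg adjustment at 0.05, which called 4 of 13473 genes (0.0297%), all of them higher. All 10 fitted values were above 0, as were 48.2% of those of all genes tested, and their median log2 fold change was 0.48, against -0.01 over all genes tested. An unadjusted p under 0.05 was reached by 8 of 10, all higher, against 8.16% of all genes, of which 4.22% were higher and 3.94% lower. In 8 of 10 genes all C1q libraries lay above all saline libraries, where 8.12% of genes tested did so and 5.96% had all C1q libraries below. Among the 3411 genes whose mean level fell in the range of the 10, from 56.2 to 627 CPM (counts scaled to the size of the library), 11.7% lay above and 8.97% had an unadjusted p under 0.05. The 10 genes vary together across libraries and were picked with earlier results of these data known, so these counts describe the group and carry no test of it.

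The individual libraries did not contribute equally. Saline replicate 3 had the lowest value of all 6 libraries for all 10 genes, and C1q replicate 1 had the highest for 7 of them. C1q replicate 2 was highest for Ctsb and Ctsl, and C1q replicate 3 for Ctsc. Saline replicate 3 also stood apart in having the most genes with a count, 23259 against 20520 to 21749 in the others, and the smallest share of its counts in tested genes, 98.2% against 99.0% to 99.3%. Total counts ran from 2227619 to 3650793 in the C1q libraries and from 2577429 to 2991562 in the saline libraries, and 3 counts, taken as the lower limit of detection, corresponded to 0.830 to 1.35 CPM. The 10 genes together held 0.365%, 0.322% and 0.335% of all counts in C1q replicates 1 to 3, against 0.273%, 0.271% and 0.215% in saline replicates 1 to 3. With saline replicate 3 left out, the median over the 10 was 0.35 on the log2 scale, and 4 of 10 genes had an unadjusted p under 0.05. That number was also 4 without C1q replicate 1, 5 without C1q replicate 3 or saline replicate 1, 6 without C1q replicate 2 and 8 without saline replicate 2.

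**Figure D1:**
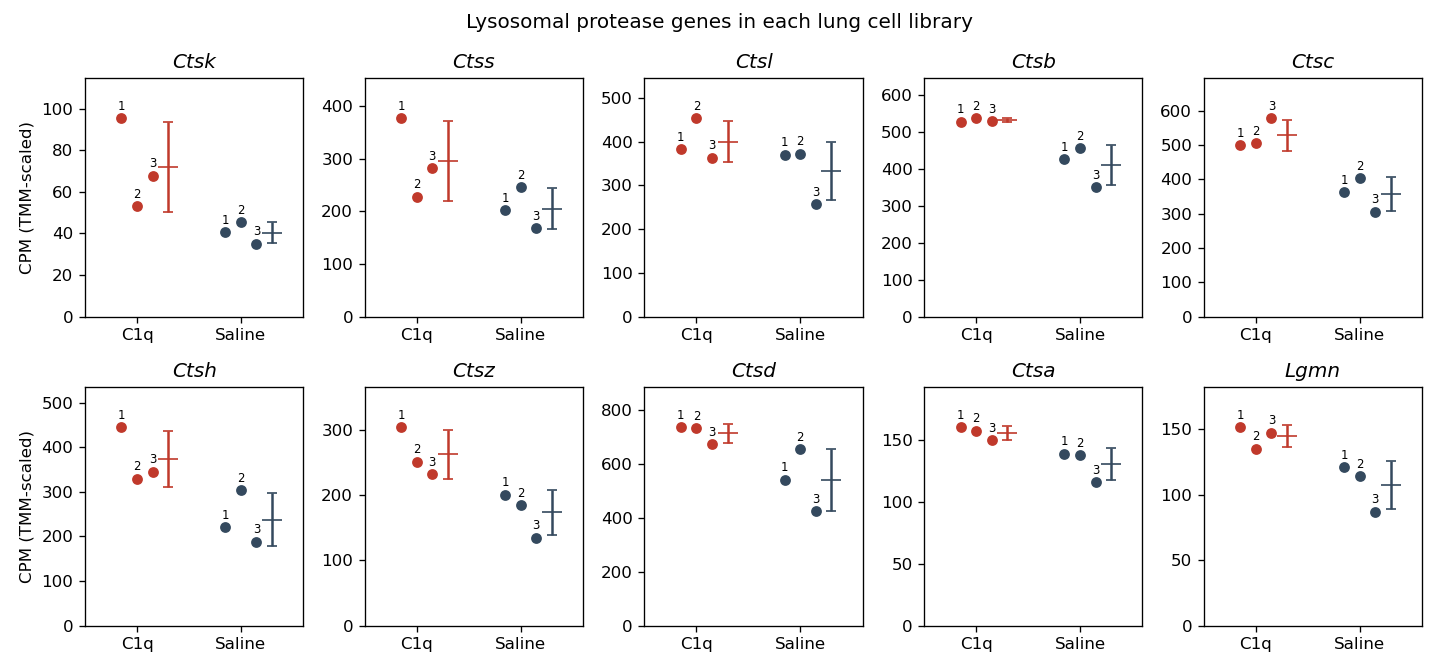
Level of each protease gene (y axis, CPM scaled by TMM library sizes, from 0) in the C1q and saline libraries. Points are libraries marked with their replicate number, and crosses with bars are the mean ± SD of 3. Saline replicate 3 is the lowest point in every panel, and C1q points overlap saline points only for Ctss and Ctsl.

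On GRCm38 (GENCODE M21) all 10 genes are annotated as protein-coding. Ctsk (chr3:95499256-95509362) and Ctss (chr3:95526786-95556403) are direct neighbours on the plus strand, 17423 bases apart with 0 annotated genes between them. Ctsa (chr2:164832873-164841032, plus strand) and Ctsz (chr2:174427493-174439039, minus strand) share chromosome 2, and Ctsc (chr7:88278085-88310888, plus strand) and Ctsd (chr7:142375911-142388038, minus strand) share chromosome 7. Ctsb lies at chr14:63122462-63145923, Ctsh at chr9:90054152-90076089, Ctsl at chr13:64359337-64370890 and Lgmn at chr12:102394084-102439813. The start of Ctsa is covered by Neurl2 on the opposite strand, and the 3′ part of Ctsd by Gm49369 on the same strand. The pseudogenes Gm49230 in Ctsl and Hmgb1-ps5 in Ctss are also on the same strand. Opposite-strand genes further overlap Ctsa (Pltp), Ctsb (Fdft1), Ctsc (Gm26522), Ctsl (Gm47123) and Ctsz (Nelfcd). Ctsh, Ctsk and Lgmn each have 0 overlapping genes. The sources used here do not give strand handling, so reads from such overlaps cannot be assigned with certainty.

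RefSeq promoter windows on GRCm38.p6, reaching from 250 bases before to 50 bases after a transcript start, were at hand for 8 of the 10 genes, and 10 windows were searched. The E-box CACGTG, the core of the lysosomal gene element bound by TFEB-family factors, was found in 4 of these 10 windows, 1 each of Ctsa, Ctsd, Ctsl and Lgmn, and in 7.15% of all 32851 windows. The longer form TCACGTG, which contains the E-box and was searched on both strands, was found in 3 of the 10 windows (Ctsa, Ctsd and Lgmn) and in 3.77% of all windows. The E-box itself reads the same on both strands. The Ctsk window is shown because that gene had the largest fitted fold change, and those of Ctsd and Ctsa because each holds 2 E-boxes, which are in capitals. The Ctsk window is chr3:95498960-95499259 (plus strand), that of Ctsd chr7:142387778-142388077 (minus strand) and that of Ctsa, the second of its windows, chr2:164833523-164833822 (plus strand).
Ctsk: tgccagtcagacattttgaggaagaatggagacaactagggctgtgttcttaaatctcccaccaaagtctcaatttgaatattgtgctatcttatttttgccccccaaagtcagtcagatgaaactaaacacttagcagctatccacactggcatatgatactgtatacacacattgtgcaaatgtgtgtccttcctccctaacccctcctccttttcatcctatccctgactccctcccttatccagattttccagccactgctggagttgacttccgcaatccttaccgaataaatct
Ctsd: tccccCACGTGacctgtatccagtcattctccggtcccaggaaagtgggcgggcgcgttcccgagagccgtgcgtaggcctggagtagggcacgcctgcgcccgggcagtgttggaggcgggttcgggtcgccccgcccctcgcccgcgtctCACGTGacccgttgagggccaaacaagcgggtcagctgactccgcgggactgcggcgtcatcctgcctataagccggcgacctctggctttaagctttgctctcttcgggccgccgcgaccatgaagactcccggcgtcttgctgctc
Ctsa: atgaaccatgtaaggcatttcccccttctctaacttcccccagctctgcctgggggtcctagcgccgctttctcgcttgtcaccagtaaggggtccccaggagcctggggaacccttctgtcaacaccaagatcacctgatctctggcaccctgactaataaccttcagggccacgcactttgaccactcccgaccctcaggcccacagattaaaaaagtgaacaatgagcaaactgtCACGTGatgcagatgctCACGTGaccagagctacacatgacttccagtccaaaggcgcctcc
The Ctsk window held no E-box. Counted from the 5′ end of the window, the E-boxes of Ctsd began at bases 6 and 153 and those of Ctsa at bases 239 and 256. A match of letters is a description and does not show that a factor binds there.

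Ctsk, the collagen- and elastin-cutting cysteine protease best known from osteoclasts, had the largest fitted fold change of the 10. Its level was 95.4, 52.9 and 67.7 CPM in C1q replicates 1 to 3, against 40.5, 45.3 and 35.1 CPM in saline replicates 1 to 3. The groups did not overlap, and the C1q libraries were spread widely, with replicate 2 just above the saline range and replicate 1 far above it. The means were 72.0 ± 21.6 CPM after C1q and 40.3 ± 5.12 CPM after saline (SD, n = 3 each), a log2 fold change of 0.84 ± 0.22 (SE) with an edgeR adjusted p of 0.410. The fitted value was 0.58 without C1q replicate 1 and 1.03 without C1q replicate 2. Without any filter on low counts edgeR called Ctsk (adjusted p = 0.00156), whereas it was not called in the other 12 alternatives.

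Ctss, which acts at near-neutral pH and trims the invariant chain of MHC class II, was at 378, 228 and 283 CPM in C1q replicates 1 to 3. Saline replicates 1 to 3 held 202, 246 and 168 CPM of it. The groups overlapped, since C1q replicate 2 lay between the saline libraries. The log2 fold change was 0.53 ± 0.21 with an edgeR adjusted p of 0.602, and it was 0.31 without C1q replicate 1. Like Ctsk, Ctsh and Lgmn, Ctss had its highest value in C1q replicate 1 and its lowest C1q value in replicate 2.

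Ctsl, an endopeptidase that processes other lysosomal enzymes and antigens, varied less with treatment. It measured 383, 454 and 364 CPM in C1q replicates 1 to 3, against 370, 373 and 257 CPM in saline replicates 1 to 3. C1q replicate 3 lay below 2 of the saline libraries, and the log2 fold change of 0.26 ± 0.18 (edgeR adjusted p = 0.692) was 0.11 without saline replicate 3 and 0.17 without C1q replicate 2. Its relatives of the placenta, encoded by a cluster of similar genes, were represented in the table by Cts8, which had at most 2.61 CPM in any library.

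Ctsb, an endopeptidase that also clips dipeptides from carboxyl ends, was even across the C1q libraries. It stood at 528, 538 and 529 CPM in C1q replicates 1 to 3, against 426, 457 and 351 CPM in saline replicates 1 to 3. All C1q libraries were above all saline libraries, and the coefficient of variation was 0.971% within C1q and 13.2% within saline. The log2 fold change was 0.37 ± 0.15 with an edgeR adjusted p of 0.602, and 0.27 without saline replicate 3.

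Ctsc, the dipeptidyl peptidase that activates the serine proteases of neutrophil, mast cell and lymphocyte granules, had the second smallest unadjusted p of the 10. Its level was 499, 507 and 579 CPM in C1q replicates 1 to 3, against 363, 403 and 306 CPM in saline replicates 1 to 3. The lowest C1q library lay well above the highest saline library. The log2 fold change was 0.56 ± 0.16 (edgeR unadjusted p = 0.00476 and adjusted p = 0.469), and it ranged from 0.47 to 0.66 when 1 library at a time was left out.

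Ctsh, an aminopeptidase that takes part in the maturation of surfactant protein B in alveolar type 2 cells, was at 445, 329 and 345 CPM in C1q replicates 1 to 3. In saline replicates 1 to 3 it was at 221, 303 and 188 CPM. The groups were separated by a narrow gap, between saline replicate 2 and C1q replicate 2. The log2 fold change of 0.65 ± 0.20 had an edgeR adjusted p of 0.522, with 0.51 both without C1q replicate 1 and without saline replicate 3. Without any filter on low counts edgeR called it (adjusted p = 0.0323), and in no other alternative. The summed level of 10 alveolar type 2 markers, of which 0 were absent from all libraries, was 34267 to 36797 CPM after C1q and 25108 to 47348 CPM after saline, with saline replicate 2 at the top.

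Ctsz, a carboxypeptidase of macrophages and other myeloid cells, measured 304, 251 and 232 CPM in C1q replicates 1 to 3. It measured 201, 185 and 135 CPM in saline replicates 1 to 3. The groups did not overlap, and the log2 fold change was 0.60 ± 0.18 (edgeR adjusted p = 0.522), or 0.45 without saline replicate 3.

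Ctsd, the aspartic endopeptidase of lysosomes, was at 736, 732 and 674 CPM in C1q replicates 1 to 3, against 542, 654 and 424 CPM in saline replicates 1 to 3. The C1q libraries were close to each other, while the saline libraries had a coefficient of variation of 21.3%. Saline replicate 2 came within the reach of C1q replicate 3 without overlapping it. The log2 fold change was 0.40 ± 0.18 (edgeR adjusted p = 0.605), and 0.26 without saline replicate 3 and 0.57 without saline replicate 2.

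Ctsa, a carboxypeptidase that also holds beta-galactosidase and the neuraminidase Neu1 in a stable complex, had the smallest difference. It stood at 160, 157 and 149 CPM in C1q replicates 1 to 3, against 139, 137 and 115 CPM in saline replicates 1 to 3. The groups did not overlap, with a log2 fold change of 0.26 ± 0.14 and an edgeR adjusted p of 0.641. The partner genes, picked here for that role and not by a rule, were at log2 fold changes of 0.41 ± 0.20 for Neu1 (edgeR adjusted p = 0.613) and 0.29 ± 0.29 for Glb1 (edgeR adjusted p = 0.782).

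Lgmn, which cuts after asparagine and converts single-chain cathepsins to their mature form, measured 152, 135 and 148 CPM in C1q replicates 1 to 3. It measured 121, 114 and 87.0 CPM in saline replicates 1 to 3. All C1q libraries were higher than all saline libraries, with a log2 fold change of 0.43 ± 0.16 (edgeR adjusted p = 0.598), or 0.30 without saline replicate 3.

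**Figure D2:**
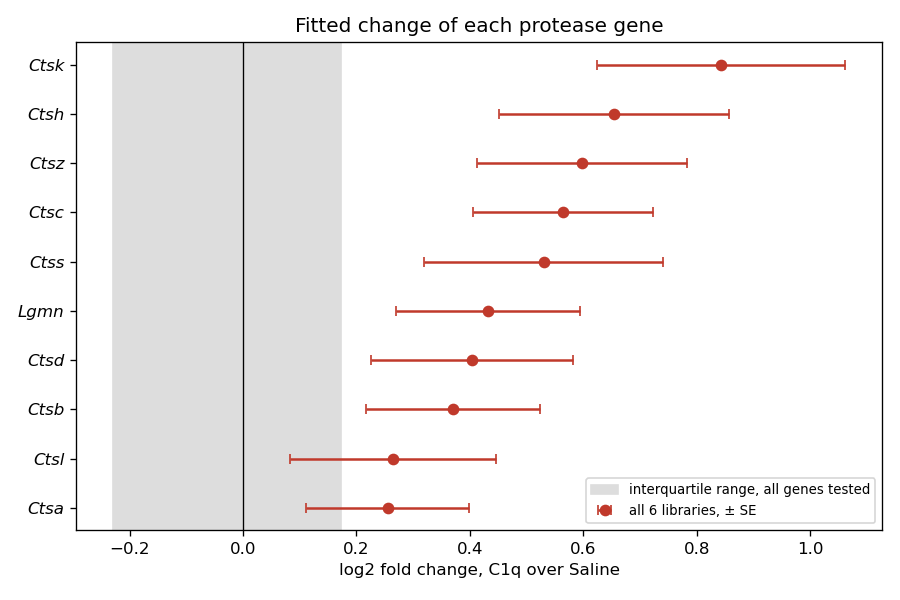
Fitted log2 fold change of C1q over saline (x axis) for each protease gene, with bars of ± SE from edgeR's fit to 6 libraries. The grey band spans the interquartile range of all 13473 genes tested, from -0.23 to 0.17, and all 10 points lie to the right of it, although the SE bars of Ctsl and Ctsa reach into it.

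**Figure D3:**
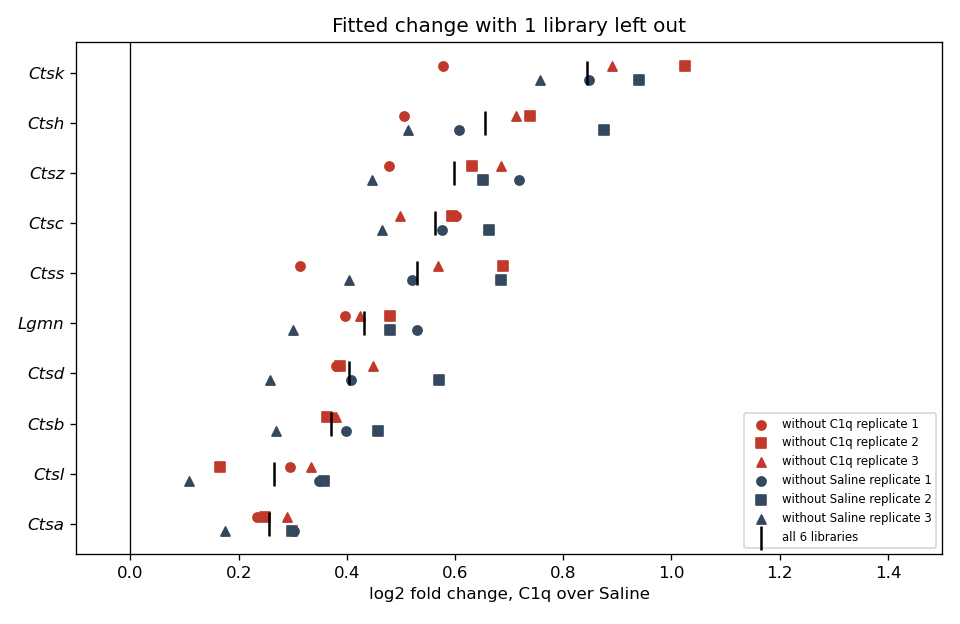
Fitted log2 fold change (x axis) of each protease gene after leaving out 1 library, with red for C1q and dark blue for saline libraries and a black tick for all 6. Every value is above 0, from 0.11 for Ctsl without saline replicate 3 to 1.03 for Ctsk without C1q replicate 2.

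The shape of the profiles across libraries differed among the 10 genes. With each gene's log2 CPM centred on its own mean over the 6 libraries, the closest pair was Ctsa and Ctsb, with a root mean square distance of 0.0790 log2 units, followed by Ctsb and Ctsd at 0.0857. The most distant pair was Ctsk and Ctsl at 0.410. The gene most like Ctsk among the other 9 was its neighbour Ctss at 0.147, followed by Ctsh at 0.167. Ctss itself was nearer to Ctsh, on chromosome 9, at 0.129 than to Ctsk. Among 10332 other genes with a mean of at least 10 CPM, the nearest to Ctsk were Ppic, which encodes cyclophilin C, at 0.102, the metalloprotease gene Adam8 at 0.135 and Tgfbi, which encodes a secreted matrix protein, at 0.135. For Ctsc the nearest were Spint1, a serine protease inhibitor of epithelia, at 0.0590, Adamtsl2, a microfibril-associated glycoprotein, at 0.0695 and the transcription factor gene Nfil3 at 0.0723. With so many genes and 6 libraries some profiles lie close to any gene, so these distances only describe likeness.

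The endogenous inhibitors of cysteine cathepsins that could be tested had fitted values below 0 by less than their SE. Cst3, which encodes the secreted inhibitor cystatin C, was at 1425, 1509 and 1303 CPM in C1q replicates 1 to 3, against 1563, 1789 and 1011 CPM in saline replicates 1 to 3. Its log2 fold change was -0.04 ± 0.21 (edgeR adjusted p = 0.969), and the groups overlapped. Cstb, the cytosolic inhibitor stefin B, was at 88.8, 91.0 and 80.8 CPM in C1q replicates 1 to 3, against 71.7, 176 and 45.2 CPM in saline replicates 1 to 3, at -0.16 ± 0.38 (edgeR adjusted p = 0.923). Of 8 cystatin and stefin genes in the table these 2 had enough counts to be tested, and 0 passed in either direction. The summed CPM of the 7 papain-family cathepsins divided by that of Cst3 was 1.85, 1.56 and 1.84 in C1q replicates 1 to 3, against 1.17, 1.12 and 1.43 in saline replicates 1 to 3. This ratio does not depend on the scaling of libraries, and saline replicate 3, lowest for every protease, had the highest ratio of the saline group. Gene by gene, the ratio to Cst3 was above the saline range in all C1q libraries for 8 of 10 proteases, the exceptions being Ctsa and Ctss. The ratio was chosen after the values had been seen and carries no test.

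Other lysosomal genes leaned the same way with smaller median differences, and 0 passed over all genes in any list. Of all genes tested, 48.2% had a log2 fold change above 0, and 4.22% were higher and 3.94% lower at an unadjusted p under 0.05. Of 8 tested genes for other cathepsins and lysosomal peptidases, 7 were positive (log2 fold change above 0), their median being 0.31, and 2 had an unadjusted p under 0.05, both higher. These were the tripeptidyl peptidase gene Tpp1 at 0.43 ± 0.15 (edgeR adjusted p = 0.564) and the carboxypeptidase-like gene Scpep1 at 0.39 ± 0.15 (edgeR adjusted p = 0.598), followed by the dipeptidyl peptidase gene Dpp7 at 0.48 ± 0.24. Of 28 glycosidases, sulfatases, lipases and related genes of the lysosome, 25 were positive with a median of 0.29, and 5 had an unadjusted p under 0.05, all higher. They were led by the progranulin gene Grn at 0.49 ± 0.15 (edgeR adjusted p = 0.512), the alpha-galactosidase gene Gla at 0.54 ± 0.19 (edgeR adjusted p = 0.555) and the hexosaminidase gene Hexa at 0.43 ± 0.15 (edgeR adjusted p = 0.566). All 11 genes for sorting to the lysosome were positive, with a median of 0.24. Of them 1 had an unadjusted p under 0.05, close to the 8.16% of all genes tested in either direction. It was the prosaposin gene Psap at 0.39 ± 0.16 (edgeR adjusted p = 0.602). Sort1, the sorting receptor sortilin, was at 0.28 ± 0.15 and M6pr, the cation-dependent mannose 6-phosphate receptor, at 0.25 ± 0.14.

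Genes of the lysosomal membrane, its proton pump and the TFEB family had a median log2 fold change of 0.26, with 18 of 20 positive and 4 with an unadjusted p under 0.05, all higher. The shares over all genes tested were 48.2% positive and 4.22% higher at an unadjusted p under 0.05. The macrophage and osteoclast pump subunit Atp6v0d2 was at 0.53 ± 0.19 (edgeR adjusted p = 0.561), the membrane protein gene Lamp2 at 0.34 ± 0.14 (edgeR adjusted p = 0.602) and the pump subunit Atp6v1a at 0.35 ± 0.14 (edgeR adjusted p = 0.602). Tfeb itself, named here for its role, had 21.0, 27.2 and 18.5 CPM in C1q replicates 1 to 3, against 22.2, 20.2 and 29.5 CPM in saline replicates 1 to 3. Its groups overlapped, at -0.10 ± 0.22 (edgeR adjusted p = 0.913).

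Genes whose products use or depend on these proteases had medians nearer to 0 than that of the 10 proteases. Of 11 genes of MHC class II presentation, 8 were positive, with a median of 0.18. Only 1 of them had an unadjusted p under 0.05, close to the 8.16% of all genes tested. That gene was Ifi30, the lysosomal thiol reductase, at 197, 139 and 144 CPM in C1q replicates 1 to 3, against 120, 134 and 87.8 CPM in saline replicates 1 to 3 (log2 fold change 0.49 ± 0.20, edgeR adjusted p = 0.602). Cd74, the invariant chain that Ctss trims, was at 0.32 ± 0.19 (edgeR adjusted p = 0.667), and Ciita, the class II transactivator, at -0.50 ± 0.23 (edgeR adjusted p = 0.606). The granule proteases and peroxidase linked to Ctsc were scarce, with 3 of 10 tested and 0 of these at an unadjusted p under 0.05. Gzma was at -0.07 ± 0.38, Gzmb at 0.10 ± 0.42 and Cma1 at -0.06 ± 0.56 (edgeR adjusted p from 0.963 to 0.985).

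**Figure D4:**
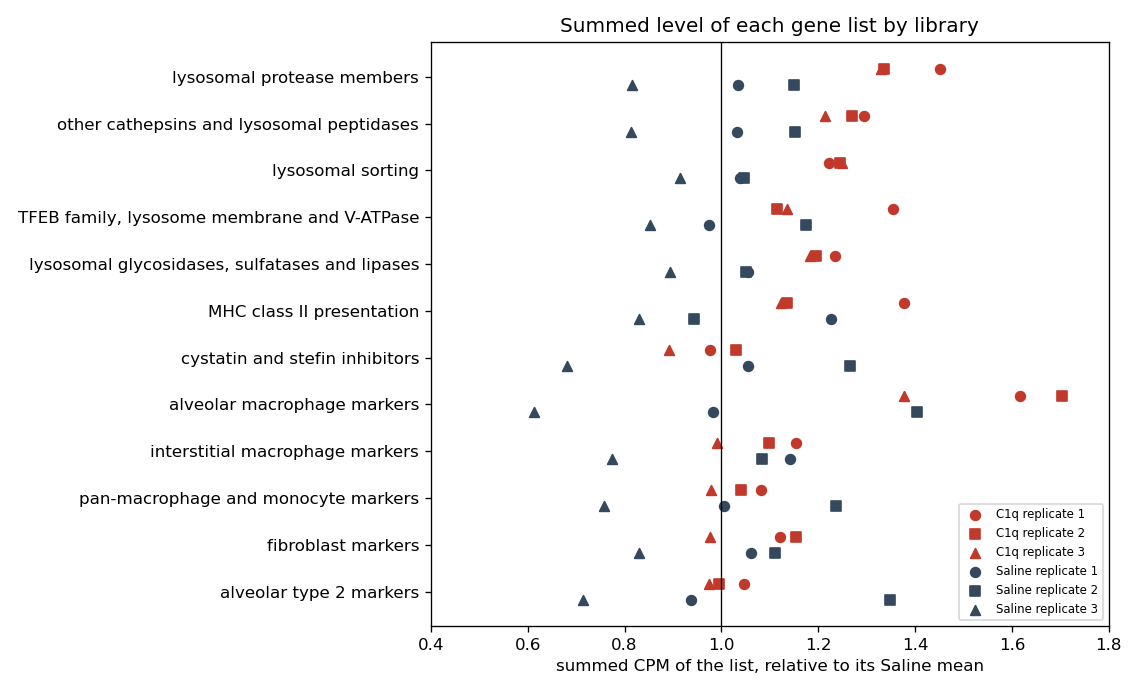
Summed CPM of 12 gene lists in each library, relative to the mean of that list over the saline libraries (x axis), with C1q libraries in red above and saline libraries in dark blue below. The 10 proteases stand at 1.33 to 1.45 after C1q, above 0.815 to 1.15 after saline, and saline replicate 3 is the lowest saline point for each list drawn. Of the lists not drawn, it was not the lowest saline library for dendritic cell, neutrophil, cycling cell and placental cathepsin genes.

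Marker levels of several cell types differed between the libraries as well, some higher and some lower after C1q. Over all genes tested 48.2% were positive, and 4.22% were higher and 3.94% lower at an unadjusted p under 0.05. The summed level of 12 alveolar macrophage markers was 3034 to 3752 CPM after C1q and 1349 to 3092 CPM after saline, lowest in saline replicate 3. Of these 12 genes, 3 had an unadjusted p under 0.05, all higher, with a median log2 fold change of 0.08. For 12 interstitial macrophage markers the sums were 1141 to 1330 CPM after C1q and 893 to 1317 CPM after saline. Of 10 tested, 3 were higher at an unadjusted p under 0.05, and the median was 0.30. These 3 were C1qa, C1qb and C1qc, which encode the chains of C1q, the protein that was given. The 2 negative genes were Cx3cr1 at -0.49 ± 0.27, with all C1q libraries below all saline libraries, and Lyve1 at -0.22 ± 0.22. For 10 general macrophage and monocyte markers the sums were 6771 to 7491 CPM after C1q and 5249 to 8556 CPM after saline, with 2 of 10 higher and a median of 0.34. For 12 fibroblast markers they were 6249 to 7384 CPM after C1q and 5300 to 7095 CPM after saline, with 5 higher and 1 lower at an unadjusted p under 0.05 and a median of 0.29. Lymphocyte and endothelial markers leaned the other way. For 10 endothelial markers the sums were 4067 to 5042 CPM after C1q and 4694 to 5325 CPM after saline, with 9 of 10 negative and a median of -0.16. For 9 T cell and natural killer markers they were 51.1 to 92.1 CPM after C1q and 68.7 to 118 CPM after saline, with 8 of 8 tested negative, 1 of them at an unadjusted p under 0.05, and a median of -0.28. For 8 B cell markers they were 208 to 339 CPM after C1q and 249 to 340 CPM after saline, with 5 of 8 negative and a median of -0.11. Dendritic cell markers summed to 114 to 142 CPM after C1q and 108 to 121 CPM after saline, and neutrophil markers to 70.0 to 127 CPM after C1q and 58.8 to 103 CPM after saline, with medians of 0.34 and 0.20. Every marker in these lists that the table holds had a count in some library, and 0 of them passed over all genes.

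Set against the macrophage, fibroblast and alveolar type 2 sums within each library, the 10 proteases were above the saline range in all C1q libraries for each sum but that of alveolar macrophages. Divided by the alveolar macrophage sum, their own sum was 1.03, 0.902 and 1.11 in C1q replicates 1 to 3, against 1.21, 0.943 and 1.53 in saline replicates 1 to 3, so the groups overlapped. That sum is carried mostly by Chil3, which had 2575, 2783 and 2317 CPM in C1q replicates 1 to 3, against 1328, 2030 and 749 CPM in saline replicates 1 to 3. Without Chil3 the ratio was 3.74, 3.49 and 4.70 in C1q replicates 1 to 3, against 3.14, 2.75 and 3.45 in saline replicates 1 to 3, the lowest C1q value lying just above the highest saline value. With Chil3 left out, Car4 and Ear2 are the largest parts of that sum, with mean levels of 244 and 202 CPM after C1q. After saline their means were 226 and 203 CPM. Siglecf and Marco of the same list had means of 22.8 and 20.9 CPM after C1q, and 22.4 and 23.1 CPM after saline. Whether the Car4 transcript came from alveolar macrophages or from other lung cells was not tested. Over the interstitial macrophage sum the ratio was 2.77, 2.67 and 2.95 after C1q, against 1.99, 2.34 and 2.32 after saline. The interstitial sum is carried mostly by Apoe and Lyve1, at log2 fold changes of 0.11 ± 0.18 and -0.22 ± 0.22. C1qa, C1qb and C1qc of the same list were at 1.05 ± 0.21, 0.88 ± 0.35 and 0.87 ± 0.25. That list had a median of 0.30, with 2 of 10 tested genes negative. Over the general macrophage sum the ratio was 0.492, 0.470 and 0.498 after C1q, against 0.377, 0.341 and 0.394 after saline. That sum is carried mostly by Lyz2, at 6807, 6604 and 6176 CPM in C1q replicates 1 to 3, against 6467, 8064 and 4795 CPM in saline replicates 1 to 3. Its log2 fold change was 0.02 ± 0.21. Adgre1 and Cd14 of the same list were at 0.77 ± 0.26 and 0.73 ± 0.15, where the list had a median of 0.34 and 1 of 10 negative. Over the fibroblast sum the ratio was 0.513, 0.458 and 0.539 after C1q, against 0.387, 0.411 and 0.390 after saline. Over the alveolar type 2 sum it was 0.100, 0.0969 and 0.0983 after C1q, against 0.0797, 0.0616 and 0.0823 after saline. The ratios rest on lists whose sums are led by a few abundant genes, and the part of cell numbers in the protease levels was not tested. Chil3, the only gene left out of a sum, had the largest log2 fold change of its list, 0.90 ± 0.29. These ratios, with and without Chil3, were chosen after the values had been seen and carry no test.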

How the data were processed

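Libraries were 5′-end RNA sequencing of Percoll-separated lung cells, 3 given C1q and 3 saline, numbered in order of deposition within each group. The authors deposited raw counts per gene symbol. Tools named in the submitters' processing notes are Bowtie2 2.4.2 and cutadapt 2.1.0, with GRCm38 as the build. The sources used here do not give the counter, annotation, strand handling or use of unique molecules. From the deposited counts, edgeR 4.0.16 (filterByExpr, TMM, estimateDisp, glmQLFit, glmQLFTest, a two-sided test with no covariate) was fitted to all 13473 genes kept, with Benjamini-Hochberg adjustment and a threshold of 0.05. Levels are CPM on TMM-scaled library sizes, and SEs come from the fold change and its F statistic. Profiles used log2(CPM + 2). All 15 pairs of libraries differed beyond counting noise (chi-square per degree of freedom 5.19 to 16.4). Preparation can add such differences too, so this does not show separate animals. Each library was counted as 1 sample. Saline replicate 3 differed less from C1q replicate 3 (5.83) than from saline replicates 1 (9.46) and 2 (16.4). The labels give no batch. The fit was tested on simulated data. Alternatives (limma 3.58.1, DESeq2 1.42.0, other scalings and filters, each library left out) numbered 13.

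The 10 genes and the gene lists were chosen with earlier results of these data known. The genes named were the 10 proteases, the 3 genes with the smallest p-value of each pathway list, any called gene, and for the 2 proteases with the smallest p-value the 3 genes with the nearest profile. Other genes named were chosen after their values were seen.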

Additional observations from a re-analysis of the deposited data

How the results depend on the processing

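All 10 proteases had a positive log2 fold change under all 13 alternatives. Leaving out 1 library at a time, the median of the 10 lay between 0.35 and 0.61 and 0 of 10 were called, and with the other scalings, the stricter filter, limma-voom and DESeq2 0 of 10 were called too. Without any filter on low counts edgeR called 2 of them, Ctsk and Ctsh, among 373 genes in all, 158 higher and 215 lower, and the cause was not tested. DESeq2 called 32 genes over the table, 31 of them higher. Over all genes 4 were called with 6 libraries and 0 to 10 with 1 library left out. The extremes came from leaving out saline replicate 1 (0 genes) and saline replicate 3 (10 genes), and removing C1q replicate 1 left 1 gene and C1q replicate 2 left 2 genes. No gene of the pathway lists was called under any of these alternatives. No paired analysis was possible because the replicate numbers were given in order of deposition and pair nothing.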

Other observations

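Among the 8 proteases with a promoter window at hand, the 4 with the E-box CACGTG had the smaller differences. Their log2 fold changes ran from 0.26 to 0.43 (Ctsa, Ctsl, Ctsd and Lgmn), against 0.53 to 0.84 for the 4 with a window and no E-box (Ctss, Ctsc, Ctsz and Ctsk). Ctsb, at 0.37, and Ctsh, at 0.65, had no window. The ranges were apart in 11 of 13 alternatives and overlapped without C1q replicate 1 and without saline replicate 1. The split was noticed after the values had been seen. Lgmn (0.43 ± 0.16) and Ctss (0.53 ± 0.21), the nearest values across it, differ by less than the SE of either. In Ctsa and Lgmn the E-box lies in 1 of 2 windows, so the split is given as a description with no test.

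Among all 10 proteases, those with the most even levels after C1q were Ctsb (coefficient of variation 0.971%) and Ctsa (3.57%), and the least even were Ctsk (30.0%) and Ctss (25.6%). Cycling cell genes, named here after their values were seen, were also uneven across the C1q libraries. Their summed level was 128, 42.7 and 118 CPM in C1q replicates 1 to 3, against 43.1, 29.1 and 50.8 CPM in saline replicates 1 to 3. Among the C1q libraries it was lowest in replicate 2, as for 4 of the 10 proteases (Ctsk, Ctss, Ctsh and Lgmn). Another 4 proteases were lowest in C1q replicate 3 and 2 in C1q replicate 1.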
